A study of Mus musculus with 3 samples.

Results

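The transcript levels of 10 genes that control the passage from G1 into S phase were measured in naive CD4 T cells: the D-type cyclins Ccnd3 and Ccnd2, the cyclin-dependent kinases Cdk4 and Cdk6, the kinase inhibitors Cdkn2d, Cdkn1b and Cdkn1a, and the pocket proteins Rbl2, Rb1 and Rbl1. The genes were chosen by name and role, with earlier results of these data known. They are 10 of the 55536 annotated genes and of the 22028 protein-coding genes. PolyA-selected RNA came from 1 adult male mouse of the B6.SJL-Ptprca Pepcb/BoyJ strain, aged 5 months, whose CD4 αβ T cells the labels call naive and thymus-derived. Its RNA was sequenced in 3 technical libraries, numbered here as the labels number them, which form 1 group of 1 biological replicate. No treatment, genotype or time was compared, so each SD describes how technical libraries of the same RNA source varied (n = 3), and the spread between mice was not measured.

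D-type cyclins bind and activate CDK4 and CDK6, and the active kinases phosphorylate the pocket proteins, which in their unphosphorylated form hold E2F transcription factors in check. INK4 inhibitors such as p19, the product of Cdkn2d, bind CDK4 and CDK6 themselves, whereas the CIP/KIP inhibitors p21 (Cdkn1a) and p27 (Cdkn1b) bind cyclin-kinase complexes. Naive T cells rest outside the cycle until they meet antigen, and in resting cells p130, the product of Rbl2, is known to join E2F4 and the MuvB core in a repressor complex named DREAM.

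Library totals were 14837442, 18207118 and 17505621 expected counts in libraries 1, 2 and 3. The naive CD4 T cell markers Cd3e, Cd4, Ccr7 and Tcf7 stood between 444 and 2632 TPM, the deposited transcript level scaled by length and library. Cd8a averaged 0.14 TPM beside 17.0 TPM for Cd8b1, and none of the 3 immature thymocyte markers averaged more than 0.057 TPM. Of markers of other cell types, Cd79a of B cells averaged 2.06 TPM, Itgam of myeloid cells 1.63 TPM and Hbb-bs of erythroid cells 1.18 TPM, while Ms4a1, Lyz2, Csf1r, Ncr1, Klrb1c and Hba-a1 averaged between 0.027 and 0.25 TPM. Library 2 stood apart from the others: annotated ribosomal RNA held 1.08% of its TPM, beside 0.299% and 0.262% in libraries 1 and 3, and genes of ribosomal proteins held 9.08%, beside 6.45% and 6.16%. The part of this in the differences between libraries given for single genes was not tested. Intervals were taken on counts pooled over the 3 libraries, so they cover counting error only and not the spread between libraries. The reads carry no molecular identifiers.

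All 10 genes reached 1 TPM in every library, the level taken as detected, which 44.6% of protein-coding genes did. Their mean levels spanned 86.8-fold, with a median of 63.2 TPM, and 7 of the 10 lay above 31.4 TPM, the median of the detected protein-coding genes. In order, the means were 676 TPM for Ccnd2, 246 TPM for Ccnd3, 108 TPM for Cdk4, 73.7 TPM for Rbl2, 71.8 TPM for Cdkn2d, 54.6 TPM for Rb1, 50.9 TPM for Cdkn1b, 30.2 TPM for Rbl1, 11.0 TPM for Cdk6 and 7.79 TPM for Cdkn1a. Among the 9 pairs of neighbours in this order, 2 overlapped in their ranges over libraries and are not separated beyond that spread: Rbl2 with Cdkn2d, and Rb1 with Cdkn1b. The order depended on the measure. Whole-number counts on the older annotation were also divided by all exon bases that the newer annotation gives a gene, retained introns included. By these counts per kilobase, Rbl2 was highest, Ccnd2 stood in place 4 and Ccnd3 in place 8, and Cdk6 was lowest. The part of this exon length in the change of order was not tested. Of the 50-base windows of their transcripts, read on either strand, none in Cdkn1b, Cdkn2d and Rbl1 occurred in another gene. In the other 7 genes between 3.32% (Cdk6) and 17.1% (Rbl2) did, and Ccnd3 shared 5.39% of its windows, among others with Bysl on the opposite strand and the pseudogene Ccnd3-ps, so reads there are uncertain. In bulk RNA, a low level in every cell and a higher level in few cells cannot be told apart.

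**Figure D1:**
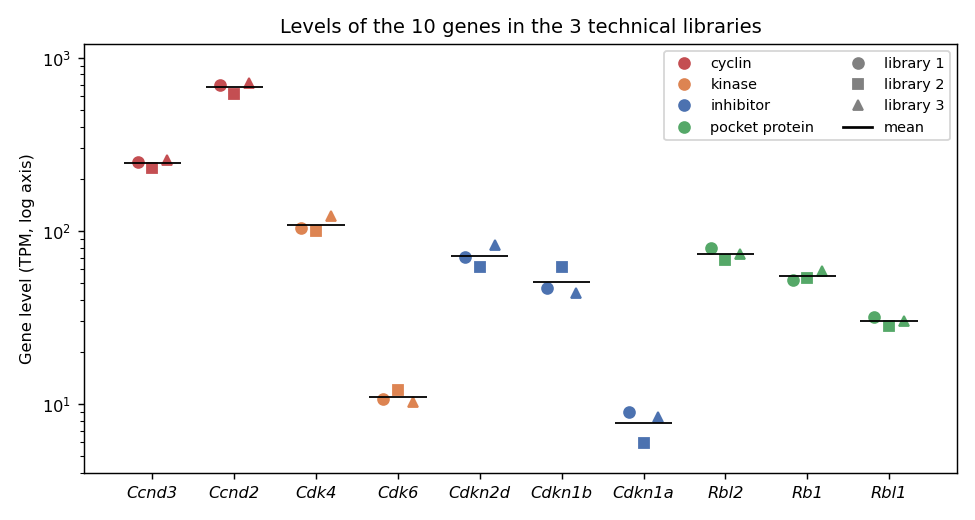
Gene level in TPM on a log axis for the 10 genes, ordered by role, with 1 point for each technical library and a black line at the mean. On this scale Ccnd2 lies highest at 676 TPM on average and Cdkn1a lowest at 7.79 TPM. Counts on the older annotation per kilobase of all annotated exon bases gave neither.

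The gene level, however, sums all annotated transcripts of a gene, and for several of these genes most of it was given to short or non-coding ones. A transcript is called full-length coding here where its coding sequence is annotated as complete and is as long as the longest of the gene. Summed over such transcripts alone, Ccnd3 was the highest of the 10 genes at 198 TPM, followed by Rbl2 at 57.2 TPM and Ccnd2 at 56.8 TPM. Cdk4 stood in place 7 at 14.8 TPM, against place 3 by gene level. Its place in the full-length order depends on how the authors' estimate divided reads between transcripts that share exons. Only 3 of the 10 genes, Cdkn2d, Rb1 and Rbl1, held the same place in both orders of means. In the full-length order the ranges over libraries of Rbl2, Ccnd2 and Cdkn1b overlapped. So did those of Cdkn2d with Rb1 and of Cdk4 with Rbl1, and these places are not separated beyond that spread.

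**Figure D2:**
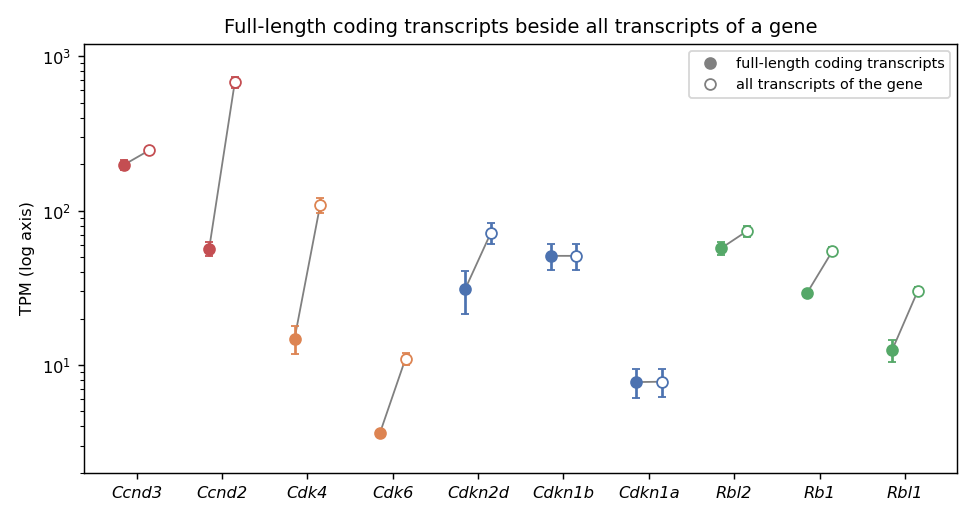
Mean TPM (log axis) over the full-length coding transcripts of each gene (filled points) and over all its transcripts (open points), with bars of 1 SD over 3 libraries. The line is steepest for Ccnd2 (56.8 against 676 TPM) and Cdk4 (14.8 against 108 TPM), while Cdkn1b lies at 50.9 TPM on both sides.

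Ccnd3 and Ccnd2 were the D-type cyclin genes detected. Ccnd3 (mm10, chromosome 17, 47505051 to 47599691, plus strand) had gene levels of 249, 232 and 258 TPM in libraries 1, 2 and 3. Ccnd2 (chromosome 6, 127125162 to 127152193, minus strand) had 692, 618 and 719 TPM. Every library of Ccnd2 was above every library of Ccnd3, and Ccnd2 ranked 175 among the 9823 detected protein-coding genes. The log2 ratio of Ccnd3 to Ccnd2 was -1.46 ± 0.03 (SD, n = 3), and the pooled ratio of length-scaled counts was 0.365 (95% Clopper-Pearson interval 0.357 to 0.373, from 13372 and 21257 counts). The log2 ratio was -0.67 on expected counts without length correction and -0.68 on older annotation counts. The third D-type cyclin, Ccnd1, averaged 0.173 ± 0.051 TPM.

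Restricting both cyclins to full-length coding transcripts turned their order round. Full-length coding transcripts of Ccnd3 had 202, 181 and 211 TPM in libraries 1, 2 and 3, which was 80.2% ± 2.0 of its gene level. The single such transcript of Ccnd2, Ccnd2-201, had 59.9, 50.02 and 60.4 TPM, which was 8.39% ± 0.28. Ccnd3 was then the higher in all 3 libraries, with a log2 ratio to Ccnd2 of 1.80 ± 0.05 (SD, n = 3).

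The level of Ccnd2 was carried by short transcripts. Ccnd2-206, a 627-base coding transcript whose annotated coding sequence is incomplete, took 44.1% ± 2.0 of the gene's TPM, with 292, 285 and 315 TPM in libraries 1, 2 and 3. Ccnd2-207, a 415-base processed transcript with no coding sequence, took 30.4% ± 1.6, and Ccnd2-204, with a complete coding sequence of 468 bases, took 9.67% ± 1.00. The full coding sequence in Ccnd2-201 has 867 bases within a 6330-base transcript. By expected counts rather than TPM, Ccnd2-201 held 49.9% of the gene and Ccnd2-206 24.2%, because TPM divides counts by length. Counts lay at 8206 per kilobase on Ccnd2-206 and at 1675 per kilobase on Ccnd2-201. The exon bases of Ccnd2-206 lie to 94.9% within exons of Ccnd2-201, so reads there were divided between them by the authors' estimate, whose posterior SD for Ccnd2-206 averaged 35.7 on a count of 1715.

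**Figure D3:**
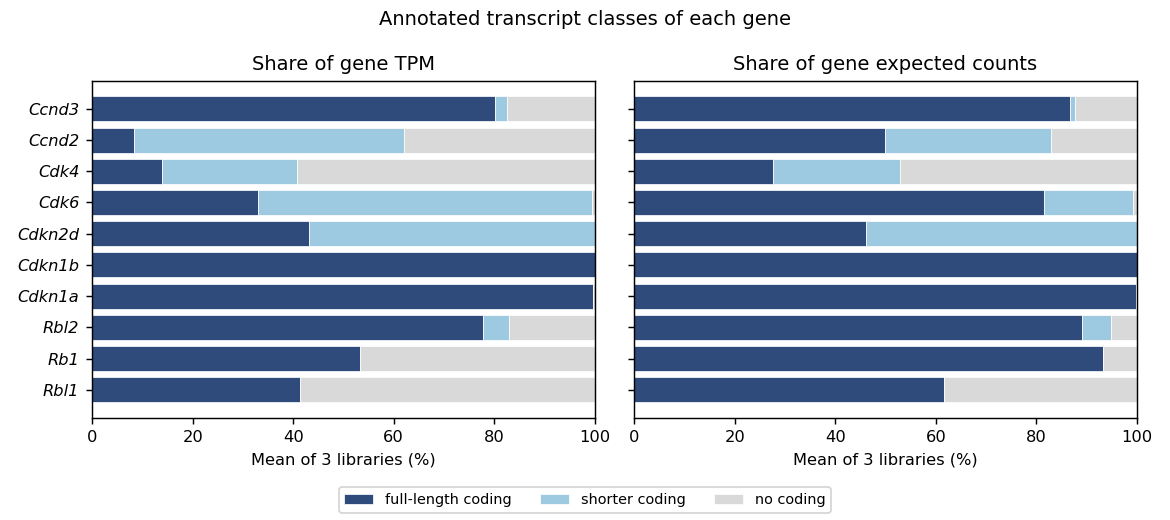
Share of each gene's TPM (left) and of its expected counts (right) held by full-length coding, shorter coding and non-coding annotated transcripts, as the mean of 3 libraries in percent. The dark part of Ccnd2 covers 8.39% of TPM and 49.9% of counts, that of Cdk6 33.0% and 81.5%, and that of Rb1 53.4% and 93.3%.

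Nearly all of the Ccnd3 level was assigned to transcripts annotated from 2 start sites that RefSeq lists. Start sites themselves were not measured. Transcripts of the downstream site, 88416 bases from the upstream one, held 35.4% ± 4.8 of the gene's TPM. They had 82.4, 74.6 and 106 TPM in libraries 1, 2 and 3, and those of the upstream site held 64.1% ± 4.8. Reads on exons shared by both sets were divided by the authors' estimate. Its posterior SD averaged 176 on a count of 1679 for Ccnd3-205 and 187 on a count of 878 for Ccnd3-201. Nearly all of the downstream share was Ccnd3-205, which at 87.1 ± 16.1 TPM was the most abundant transcript of the gene, and which has the same 876-base coding sequence length as Ccnd3-201 and Ccnd3-215, the leading transcripts of the upstream site at 45.3 ± 5.1 and 45.2 ± 11.7 TPM. Ccnd3-203, a retained intron counted in the upstream share, held 11.3% ± 0.32 of TPM, with 28.1, 27.02 and 28.4 TPM. The promoters of both sites are shown because they differ in base composition as well as in the TPM assigned. The downstream one holds 28 CpG dinucleotides and the upstream one 15, beside a median of 7 over 32851 RefSeq promoters of the same 300-base length. Each line gives the 250 bases before the start in lower case and the first 30 transcribed bases in capitals, 5′ to 3′ on the plus strand, from RefSeq on GRCm38.p6, at chr17:47593217-47593496 for the downstream and chr17:47504801-47505080 for the upstream site.
Ccnd3 downstream start: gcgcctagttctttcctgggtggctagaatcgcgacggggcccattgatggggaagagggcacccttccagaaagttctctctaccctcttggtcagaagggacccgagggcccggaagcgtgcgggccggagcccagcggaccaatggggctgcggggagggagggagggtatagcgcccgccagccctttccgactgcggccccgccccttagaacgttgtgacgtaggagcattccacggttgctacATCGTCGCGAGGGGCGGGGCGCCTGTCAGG
Ccnd3 upstream start: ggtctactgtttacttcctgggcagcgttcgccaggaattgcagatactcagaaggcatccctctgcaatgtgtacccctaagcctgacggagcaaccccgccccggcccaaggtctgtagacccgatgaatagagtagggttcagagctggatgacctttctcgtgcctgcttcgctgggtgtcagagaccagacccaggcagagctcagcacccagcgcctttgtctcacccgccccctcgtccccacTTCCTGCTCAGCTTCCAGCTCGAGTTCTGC
The upstream sequence holds a FOXO motif (TGTTTAC, searched on both strands) at position -243 from the start, a motif found in 3.65% of the 32851 promoters.

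Of the kinases, Cdk4 had by far the higher gene level. Cdk4 (chromosome 10, 127063534 to 127067920, plus strand) had 104, 99.7 and 122 TPM in libraries 1, 2 and 3. Cdk6 (chromosome 5, 3341485 to 3531008, plus strand) had 10.6, 12.1 and 10.2 TPM. The groups of values did not overlap, the log2 ratio of Cdk4 to Cdk6 was 3.29 ± 0.26 (SD, n = 3), and the pooled ratio was 9.80 (95% interval 8.96 to 10.7, from 3217 and 567 counts). Without length correction the log2 ratio was 2.53.

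The full-length levels of the kinases were closer. Cdk4-201, the only full-length coding transcript of Cdk4, had 17.4, 15.6 and 11.4 TPM in libraries 1, 2 and 3, or 13.9% ± 4.0 of the gene. The full-length coding transcripts of Cdk6 had 3.48, 3.85 and 3.53 TPM together, or 33.0% ± 1.4. The log2 ratio of Cdk4 to Cdk6 on this scale was 1.98 ± 0.31 (SD, n = 3), still positive in direction. The leading transcript of Cdk4 was Cdk4-209, a 468-base retained intron, with 39.0% ± 1.7 of TPM and 16.5% of counts. Next came Cdk4-205, at 22.4% ± 1.2, with 760 annotated coding bases beside the full 909 bases. Its 760 bases are not a whole number of codons, so its annotated coding sequence is incomplete. Another retained intron, Cdk4-207, held 11.8% ± 1.9. The exon bases of Cdk4-209 and Cdk4-205 lie to 94.7% and 98.1% within exons of Cdk4-201. Reads there were divided between these transcripts by the authors' estimate, so the share of Cdk4-201 depends on that division. In Cdk6 the 425-base Cdk6-205, with 87 annotated coding bases, took 47.3% ± 7.6 of TPM from 58.2 counts over all libraries, Cdk6-201 26.5% ± 2.2 and Cdk6-203 19.1% ± 8.7. The last exon region of Cdk4 overlaps Tspan31 on the opposite strand over 641 exon bases, all of them in Cdk4-201 and 31.2% of its length. Tspan31 averaged 22.1 ± 1.28 TPM, and no source used here says whether counting used strand, so reads in the overlap cannot be told apart.

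Among the inhibitors, Cdkn2d and Cdkn1b were well above Cdkn1a. Cdkn2d (chromosome 9, 21288410 to 21291407, minus strand) had 70.2, 62.04 and 83.3 TPM in libraries 1, 2 and 3. Cdkn1b (chromosome 6, 134920401 to 134925513, plus strand) had 47.0, 62.1 and 43.6 TPM. Cdkn1a (chromosome 17, 29090976 to 29100727, plus strand) had 9.05, 5.95 and 8.38 TPM. Every library of Cdkn1b was above every library of Cdkn1a, with a log2 ratio of 2.70 ± 0.58 (SD, n = 3) and a pooled ratio of 6.71 (95% interval 6.01 to 7.51, from 5115 and 342 counts). Without length correction the log2 ratio was 3.86, and on older annotation counts 3.65, both above the 2.70 from TPM. The size of the ratio from TPM rested in part on library 2, where it was 3.36 on the log2 scale, beside 2.37 and 2.36 in libraries 1 and 3. Cdkn2d and Cdkn1b did not separate: their log2 ratio was 0.58, -0.0023 and 0.93 in the 3 libraries, a mean of 0.50 ± 0.47 (SD, n = 3). Its sign turned without length correction (-0.86) and on older annotation counts (-0.77).

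The transcripts of the inhibitors differed in kind. The whole gene level of Cdkn1b was full-length coding, at 52.4% ± 1.9 for Cdkn1b-201 and 45.4% ± 3.7 for Cdkn1b-202, which both carry the 591-base coding sequence of p27. Cdkn2d was split between Cdkn2d-203, with the full 498-base coding sequence of p19, and Cdkn2d-201, annotated with only 150 coding bases. Cdkn2d-203 had 39.4, 20.6 and 33.3 TPM in libraries 1, 2 and 3, against 30.8, 41.4 and 50 TPM for Cdkn2d-201. Which of them was higher thus depended on the library, with Cdkn2d-203 ahead in library 1 only. Set beside Cdkn1b, the full-length Cdkn2d transcript had a log2 ratio of -0.74 ± 0.73 (SD, n = 3), against 0.50 for the gene levels.

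The level of Cdkn1a, like that of Ccnd3, was mainly assigned to transcripts annotated from 2 start sites in RefSeq. Both sites have transcripts with its 477-base coding sequence. Transcripts of the downstream site held 60.8% ± 7.5 of TPM, with 4.77, 4.01 and 5.2 TPM in libraries 1, 2 and 3. Those of the upstream site, 2790 bases away, held 33.6% ± 11.2, with 3.97, 1.29 and 2.94 TPM. The downstream share was the higher in all 3 libraries. The depth was 253 counts over the 3 libraries for Cdkn1a-201 of the downstream site and 67.5 counts for Cdkn1a-202 of the upstream site. Reads on shared exons were divided by the authors' estimate here too. The promoters of both sites are printed in the same way, from chr17:29093519-29093798 and chr17:29090729-29091008 on the plus strand.
Cdkn1a downstream start: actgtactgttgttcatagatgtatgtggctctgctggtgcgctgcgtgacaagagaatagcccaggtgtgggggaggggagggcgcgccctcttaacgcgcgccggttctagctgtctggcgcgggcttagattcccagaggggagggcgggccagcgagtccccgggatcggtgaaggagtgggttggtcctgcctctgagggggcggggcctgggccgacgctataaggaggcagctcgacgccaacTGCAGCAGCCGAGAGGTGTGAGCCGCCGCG
Cdkn1a upstream start: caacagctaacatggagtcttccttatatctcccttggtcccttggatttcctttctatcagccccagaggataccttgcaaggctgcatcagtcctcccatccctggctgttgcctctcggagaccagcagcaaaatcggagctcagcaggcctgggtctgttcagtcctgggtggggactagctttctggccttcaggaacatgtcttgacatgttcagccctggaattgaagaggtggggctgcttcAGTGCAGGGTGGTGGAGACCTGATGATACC
The downstream promoter holds 23 CpG dinucleotides and 64.7% G and C, against 2 CpG dinucleotides and 54.7% in the upstream one. Neither window holds any of the motifs searched.

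The pocket proteins stood in the order Rbl2, Rb1, Rbl1, encoding p130, RB and p107. Rbl2 (chromosome 8, 91070057 to 91123844, plus strand) had 79.6, 67.7 and 73.9 TPM in libraries 1, 2 and 3. Rb1 (chromosome 14, 73183673 to 73325822, minus strand) had 52.0, 53.4 and 58.5 TPM. Rbl1 (chromosome 2, 157145893 to 157204534, minus strand) had 32.0, 28.3 and 30.2 TPM. No library of one gene overlapped with any of the next. The log2 ratio was 0.43 ± 0.16 for Rbl2 to Rb1, 1.28 ± 0.03 for Rbl2 to Rbl1 and 0.85 ± 0.14 for Rb1 to Rbl1 (SD, n = 3 each). The pooled ratios were 1.34 (95% interval 1.29 to 1.39), 2.44 (2.34 to 2.54) and 1.82 (1.74 to 1.91) in the same order. For Rbl2 to Rb1 the log2 ratio was 1.12 without length correction and 1.09 on older annotation counts.

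The order of the pocket proteins was the same over full-length coding transcripts, and the gaps were wider. Rbl2-201 had 57.8, 51.7 and 62.2 TPM, Rb1-201 had 28.9, 29.9 and 28.5 TPM, and Rbl1-201 had 13.5, 10.2 and 13.8 TPM in libraries 1, 2 and 3. These were 77.7% ± 5.9, 53.4% ± 4.1 and 41.3% ± 4.9 of their genes, and the log2 ratio became 0.97 ± 0.17 for Rbl2 to Rb1 and 2.19 ± 0.12 for Rbl2 to Rbl1 (SD, n = 3 each). Rbl1 was shared with Rbl1-202, a retained intron that took 46.7% ± 3.5 of TPM and 34.0% of counts.

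In Rb1, the 408-base non-coding Rb1-206 took 29.9% ± 6.7 of TPM, with 19.0, 16.0 and 13.6 TPM, though only 172 counts over the 3 libraries, or 4.003% of the gene's counts. All of its 408 exon bases lie inside exons of Lpar6, a lysophosphatidic acid receptor gene on the opposite strand within an Rb1 intron, and none of them lie in exons of Rb1-201. Lpar6 averaged 10.3 ± 1.19 TPM, and without knowledge of strand in the counting, reads of Rb1-206 and Lpar6 cannot be told apart. The same holds for Rcbtb2, also on the opposite strand, which averaged 48.9 ± 6.77 TPM. It overlaps Rb1 over 488 exon bases, and 105 bases of Rb1-201 lie in its exons. Rbl2 overlaps Aktip on the opposite strand over 693 exon bases, and Aktip averaged 21.1 ± 2.86 TPM.

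Of the 4 motifs searched, the promoter of Rbl1 held the E2F one. The 32 bases around it are shown, with the motif in capitals, on the minus strand of GRCm38.p6 from RefSeq at chr2:157204533-157204564.
Rbl1 promoter: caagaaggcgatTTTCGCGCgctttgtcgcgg
The motif begins at position -18 from the start. E2F was searched as TTTCGCGC, TTTGGCGC or TTTCCCGC on both strands, and 1.84% of the 32851 promoters hold at least 1 of them. Promoters in the table covered 8 of the 10 genes in 10 windows, Ccnd2 and Rb1 not among them. Rbl2 held the CHR motif TTTGAA on the minus strand at -201 (17.9% of promoters), and Cdk6 the TATA motif TATAAA at -103 (13.6% of promoters). These matches describe letters in the windows and nothing about factors bound there.

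Summed by role, the cyclins held the most TPM. The 2 cyclins had 941, 849 and 977 TPM in libraries 1, 2 and 3, the 3 pocket proteins 164, 149 and 163 TPM, the 3 inhibitors 126, 130 and 135 TPM, and the 2 kinases 114, 112 and 132 TPM. The log2 ratio of summed inhibitors to summed kinases was 0.13 ± 0.09, that of inhibitors to cyclins -2.82 ± 0.10, and that of pocket proteins to kinases 0.41 ± 0.11 (SD, n = 3 each). In the same order these were 1.10, -2.09 and 2.13 without length correction, and 0.55, -1.38 and 2.30 on older annotation counts. On these older counts, which are not divided by length, the summed pocket proteins stood above the summed cyclins in every library. Over full-length coding transcripts the inhibitors stood further above the kinases, at 2.30 ± 0.19, and so did the pocket proteins, at 2.44 ± 0.32, while the inhibitors stood at -1.50 ± 0.15 to the cyclins. These are transcript levels of summed genes, and protein was not measured.

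The libraries differed by more than counting noise for 6 of the 10 genes (Cdkn2d, Cdkn1b, Cdk6, Ccnd2, Rb1 and Rbl2), by a chi-square test of counts with edgeR's TMM library sizes and Benjamini-Hochberg adjustment over 13090 genes. That test called 40.0% of all genes tested. At a minimum mean count of 50 it called the same 6 of the 10 and 47.1% of all genes tested. Cdkn1b stood out in size, with 86.9, 130 and 85.7 CPM (counts scaled to a common library size) in libraries 1, 2 and 3, a ratio of highest to lowest of 1.52 (chi-square with Benjamini-Hochberg adjustment, adjusted p = 4.0e-46). Cdk6 was also highest in library 2, at 13.6 CPM, beside 10.2 and 9.84 CPM in libraries 1 and 3 (chi-square, adjusted p = 0.0040), and the ratio was 1.26 for Cdkn2d and between 1.09 and 1.14 for Ccnd2, Rb1 and Rbl2. The counts of Ccnd3, Cdk4, Rbl1 and Cdkn1a were not called, with ratios of 1.03, 1.04, 1.10 and 1.26. Without library 2 the test called 2 of the 10 genes, Cdkn2d and Rbl2, and 14.7% of all genes. The median coefficient of variation of TPM was 8.54% over the 10 genes and 10.1% over detected protein-coding genes.

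**Figure D4:**
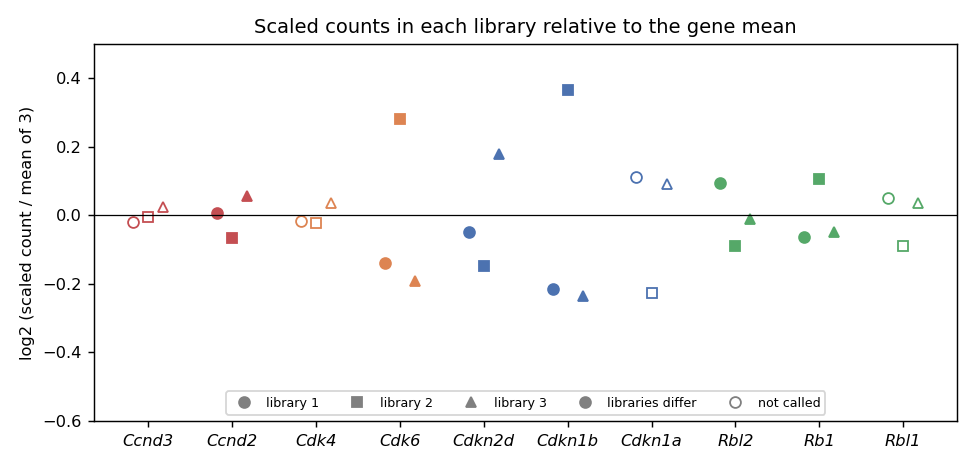
Scaled counts of each gene in each library on the log2 scale relative to the mean of its 3 libraries, with filled points for genes whose libraries differed by the chi-square test and open points for the others. Library 2 (squares) lies highest for Cdkn1b, Cdk6 and Rb1 and lowest for Ccnd2, Cdk4, Cdkn2d, Cdkn1a, Rbl2 and Rbl1.

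The rest of the G1 and S machinery was read from 9 lists with 64 genes, of which 47, or 73.4%, were detected in every library, with a median of 11.9 TPM. Over all protein-coding genes 44.6% were detected, beside 37.5% of the other cyclins and kinases and 50% of the other inhibitors. Of the other cyclins and kinases, 3 of 8 were detected: Cdk2, the partner of cyclin E, at 31.8 ± 2.11 TPM, and the E-type cyclins Ccne2 at 4.69 ± 1.03 and Ccne1 at 3.13 ± 0.47 TPM. Cyclin A and B genes were below 1 TPM on average, as was Ccnd1, the lowest. Of the other inhibitors, 2 of 4 were detected: Cdkn1c, which encodes p57, at 11.0 ± 4.03 TPM, above Cdkn1a in mean, and Cdkn2c, which encodes p18, at 1.91 ± 0.32 TPM. Cdkn2b averaged 0.81 ± 0.25 TPM, and Cdkn2a had 1 count over all libraries.

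**Figure D5:**
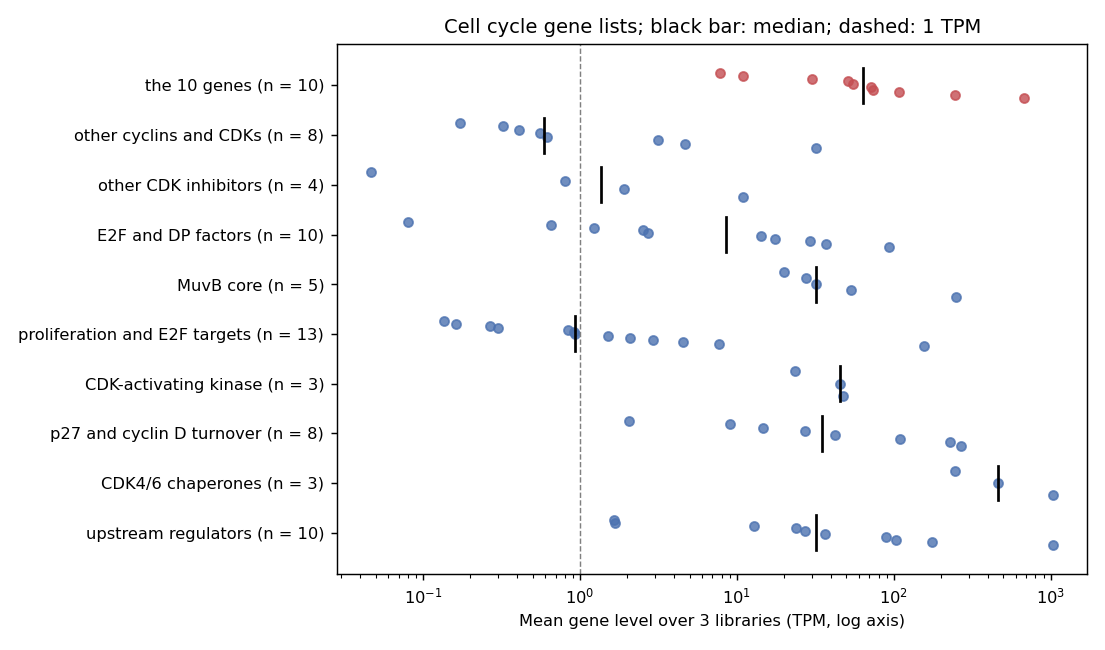
Mean level of each gene in TPM on a log axis for the 10 genes (red) and 9 further lists (blue), with a black bar at the median of each list and a dashed line at 1 TPM. The medians of the proliferation list (0.937 TPM) and of the other cyclins and kinases (0.59 TPM) lie left of the line, and the 10 genes have a median of 63.2 TPM.

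Of the partners of the pocket proteins, 8 of 10 E2F and DP genes were detected. E2f4, the partner of p130, was highest at 93.3 ± 2.72 TPM, followed by the DP subunits Tfdp1 at 36.9 ± 3.74 and Tfdp2 at 29.4 ± 3.86 TPM, with E2f8 lowest at 0.08 ± 0.085 TPM. E2f4 was above the highest library of Rbl2 in every library, at 95.4, 90.3 and 94.3 TPM. All 5 genes of the MuvB core were detected, with Rbbp4 at 249 ± 13.4, Lin37 at 53.7 ± 9.37 and Lin54 at 31.9 ± 1.53 TPM, and Lin9 lowest at 19.98 ± 2.30 TPM. Of 13 proliferation and E2F target genes, 5 (38.5%) were detected, beside 44.6% of all protein-coding genes. Pcna, which also serves DNA repair, stood at 155 ± 9.80 TPM, Rrm2 at 7.73 ± 0.28 and Tyms at 4.56 ± 0.77 TPM, and Mki67, which cycling cells express, was lowest at 0.137 ± 0.067 TPM.

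Genes that activate, fold or remove the cyclins, kinases and p27 were detected throughout. The 3 subunits of the CDK-activating kinase had 47.8 ± 4.14 TPM (Ccnh), 45.5 ± 2.85 TPM (Cdk7) and 23.6 ± 2.18 TPM (Mnat1). The chaperones that fold CDK4 and CDK6 had 1039 ± 46.9 TPM (Hsp90ab1), 460 ± 110 TPM (Hsp90aa1) and 246 ± 19.9 TPM (Cdc37). Among 8 turnover genes, the ubiquitin ligase subunits Skp1a, Rbx1 and Cul1 had 269.7 ± 28.5, 229.5 ± 6.54 and 109 ± 16.5 TPM, while Skp2, the subunit that recognises p27, was lowest at 2.05 ± 0.29 TPM. All 10 upstream regulators were detected, led by Klf2, a transcription factor of quiescent T cells, at 1040 ± 33.1 TPM, the tumour suppressor Trp53 at 176 ± 5.56 TPM and Foxo1 at 103 ± 3.89 TPM, with Foxo4 lowest at 1.66 ± 0.096 TPM.

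For each of the 10 genes the list gene nearest in mean log2(TPM + 0.1) over the 3 libraries was found, as a measure of level alone. The closest matches were Cdk4 with Cul1, which differed by -0.0012 on the log2 scale, Ccnd3 with Cdc37 (0.0035) and Cdkn1a with Rrm2 (-0.011). Rb1 and Cdkn1b both lay nearest to Lin37 (0.040 and -0.077), Rbl1 nearest to Tfdp2 (0.043) and Cdk6 nearest to Cdkn1c (0.073). Rbl2 and Cdkn2d both lay nearest to Mdm2 (-0.27 and -0.31), and Ccnd2 had no gene closer than Hsp90aa1 (0.58).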

How the data were processed

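The 3 technical libraries of 1 mouse were made from sheared RNA with a size range of 100-300, per the labels. The assembly was mm10, and GENCODE M21 annotated the gene and transcript tables, with M4 for a separate count table, per the text deposited with the files. The aligner, counter and strand setting were not given in the sources used here. The authors deposited expected counts, which are estimated reads and need not be whole, with TPM and posterior means of both and the posterior SD of transcript counts, per the file headers. The isoform percent of each transcript (its part of the gene TPM) and whole-number counts on M4 were also deposited by the authors. TPM depend on the annotated length of every transcript to which reads were assigned. Entries that name no gene took up 0.247%, 0.200% and 0.325% of each library and entered neither library sizes nor tests.

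Levels are the mean and SD of deposited TPM. Ratios used log2(TPM + 0.1), and pooled ratios carry exact 95% Clopper-Pearson intervals. With 3 technical libraries an exact two-sided sign-flip permutation test cannot go below 0.25, so no p is given for a ratio. Differences between libraries were tested on rounded expected counts by chi-square, with TMM sizes (edgeR 4.0.16, R 4.3.3, scipy 1.17.1) on genes averaging 10 counts or more, and Benjamini-Hochberg adjustment at 0.05. Its p-values set the differences between technical libraries against counting noise. They depend on the depth of a gene and do not measure the size of a difference. RefSeq starts were matched to transcripts within 500 bases. The text names the 10 genes, the 3 highest and the lowest gene of each list, the nearest list gene of each and transcripts with at least 10 percent of a gene. Ccnd2-201 and Ccnd2-204, and the overlapping genes Tspan31, Lpar6, Rcbtb2, Aktip and Bysl, were chosen after their values were seen. The genes and lists were chosen with earlier results of these data known, and the split by full-length coding transcripts was chosen after seeing the data. A planned comparison of protein sequences was not run. Alternatives covered DESeq2 size factors (1.42.0), library totals, count minimums, pseudocounts, TPM rescaled over protein-coding genes without mitochondrial and ribosomal protein genes, posterior means, counts without length correction, M4 counts and leaving out each library. Some planned marker genes are not reported here.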

Additional observations from a re-analysis of the deposited data

How the results depend on the processing

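The paralog ratios depended most on which transcripts were counted and on length. On the log2 scale, in the order Ccnd3 to Ccnd2, Cdk4 to Cdk6, Cdkn1b to Cdkn1a, Cdkn2d to Cdkn1b, Rbl2 to Rb1, Rbl2 to Rbl1 and Rb1 to Rbl1, expected counts without length correction gave -0.67, 2.53, 3.86, -0.86, 1.12, 1.69 and 0.57. Full-length coding transcripts, an alternative chosen after seeing the data, gave 1.80, 1.98, -0.74, 0.97, 2.19 and 1.22 for all of these but Cdkn1b to Cdkn1a. Counts on the older annotation gave -0.68 for Ccnd3 to Ccnd2, 3.65 for Cdkn1b to Cdkn1a, -0.77 for Cdkn2d to Cdkn1b, 1.09 for Rbl2 to Rb1, 1.39 for Rbl2 to Rbl1 and 0.30 for Rb1 to Rbl1. Posterior mean TPM gave -1.40 for Ccnd3 to Ccnd2 and 1.32 for Rbl2 to Rbl1. So Ccnd3 to Ccnd2 changed sign over full-length transcripts, and Cdkn2d to Cdkn1b under each of the first 3 of these settings. The summed inhibitors to kinases, inhibitors to cyclins and pocket proteins to kinases gave 1.10, -2.09 and 2.13 without length correction, 0.55, -1.38 and 2.30 on the older annotation and 2.30, -1.50 and 2.44 over full-length transcripts. Beyond the length correction and the choice of transcripts, which these settings change by construction, the cause was not tested. The place in the order was kept by 10 of the 10 genes under posterior mean TPM and 3 over full-length transcripts. By older counts per kilobase of all annotated exon bases 1 gene kept its place, Rbl2 led, and Ccnd2 and Ccnd3 stood in places 4 and 8. Posterior means moved the full-length share to 98.2% for Cdkn1a, 68.2% for Rbl2, 76.2% for Ccnd3 and 30.8% for Cdk6. Older counts called 2 of the 10 genes and 1895 genes in all (18.9% of those tested) as differing between libraries. These counts totalled only 5160325, 5816158 and 5703629 in libraries 1, 2 and 3, fewer than the expected counts. The part of depth in the smaller number of calls was not tested. Leaving out library 1, 2 or 3 called 5, 2 and 5 of the 10, beside 36.8%, 14.7% and 27.6% of all genes tested (1903 to 4875 genes). Detection at 5 TPM left 1 of the other cyclins and kinases, 1 of the other inhibitors, 5 E2F and DP genes and 2 proliferation genes, 0.5 TPM gave 9 proliferation genes, and posterior means gave 8 of them and 5 other cyclins and kinases. The 10 gene levels were all higher when rescaled over protein-coding genes, since other genes left the total. No paired analysis was possible because the libraries form 1 group of 1 animal.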
